A study of Mus musculus with 13 samples.

Results

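The genes described here are 10 chemokine ligands, Ccl2, Ccl3, Ccl4, Ccl5, Ccl6, Ccl9, Ccl12, Cxcl1, Cxcl2 and Cxcl16, taken by symbol from a table of 19737 genes measured in mouse microglia. All 10 were found in the table. They were divided into 5 ligands often named with the disease-associated state of microglia (Ccl3, Ccl4, Ccl6, Ccl9 and Cxcl16) and 5 often named with acute inflammatory responses (Ccl2, Ccl5, Ccl12, Cxcl1 and Cxcl2). The division is a working one, since Ccl3 and Ccl4 are also rapidly induced genes. It was made with earlier results of these data known, so contrasts between these 2 sets of ligands are descriptions. RNA was sequenced in 13 libraries of 4 groups. An AAV PHP.eB vector carrying EGFP had been given in 3 wild type libraries and in 2 of 5xFAD, a transgenic model of amyloid deposition in which mutant human transgenes are expressed in neurons. A further 4 libraries of 5xFAD had an AAV PHP.eB vector with circPOLR2A (the circRNA group), whose label carries a different number pair in each library, from (9,10) to (9,13), and which were treated as one group. The last group was 5xFAD with PKR KO, also 4 libraries, with no vector named in the labels. PKR is the kinase activated by double-stranded RNA and encoded by Eif2ak2. The labels give no age, sex, or statement that each library came from a separate animal, so p-values measure the spread between these libraries, which may be technical in part.

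Chemokines are small secreted proteins that bind to receptors coupled to G proteins and direct the migration of leukocytes. The CC ligands Ccl3, Ccl4 and Ccl5 attract monocytes and T cells, Ccl2 and Ccl12 bind Ccr2 on monocytes, Ccl6 and Ccl9 act through Ccr1, Cxcl1 and Cxcl2 bind Cxcr2 on neutrophils, and Cxcl16 is a membrane-anchored ligand of Cxcr6. In the brain, microglia are a main source of Ccl3 and Ccl4, and microglia near amyloid plaques are known to raise several of these ligands.

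Of the ligands, 8 lie on chromosome 11 and 2 on chromosome 5 (build GRCm38). Cxcl1 (chr5:90891241-90893115) and Cxcl2 (chr5:90903871-90905938) are neighbours, 10.8 kb apart on the same strand. Ccl9 (chr11:83572919-83578636) and Ccl6 (chr11:83587882-83593087) are likewise neighbours, 9.2 kb apart on the same strand, and Ccl3 and Ccl4 follow in the same cluster with 13.2 kb between them. The 250 bases before the start site of the neighbouring pairs Cxcl1 with Cxcl2 and Ccl6 with Ccl9 are printed from RefSeq (GRCm38.p6, gene strand), because the second pair parted in the data and the first pair differed widely in level. Capitals mark matches to the kappaB motif, to AP-1 (TGANTCA), both on either strand, and to TATAAA on the gene strand. The windows are chr5:90890995-90891244 and chr5:90903649-90903898 on the plus strand, and chr11:83593088-83593337 and chr11:83578637-83578886 on the minus strand.
Cxcl1: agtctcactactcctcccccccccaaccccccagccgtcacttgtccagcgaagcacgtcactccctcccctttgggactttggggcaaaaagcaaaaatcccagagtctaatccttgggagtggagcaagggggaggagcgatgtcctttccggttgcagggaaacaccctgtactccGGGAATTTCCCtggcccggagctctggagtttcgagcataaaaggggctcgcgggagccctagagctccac
Cxcl2: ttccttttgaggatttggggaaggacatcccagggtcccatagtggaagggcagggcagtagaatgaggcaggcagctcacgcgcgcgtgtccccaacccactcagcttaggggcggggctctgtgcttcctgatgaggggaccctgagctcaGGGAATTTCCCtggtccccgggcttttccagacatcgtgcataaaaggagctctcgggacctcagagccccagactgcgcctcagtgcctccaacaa
Ccl6: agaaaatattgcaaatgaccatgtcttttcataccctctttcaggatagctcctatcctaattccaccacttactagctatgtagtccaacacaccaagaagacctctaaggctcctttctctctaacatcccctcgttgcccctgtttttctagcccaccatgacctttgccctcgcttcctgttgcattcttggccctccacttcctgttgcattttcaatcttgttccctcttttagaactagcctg
Ccl9: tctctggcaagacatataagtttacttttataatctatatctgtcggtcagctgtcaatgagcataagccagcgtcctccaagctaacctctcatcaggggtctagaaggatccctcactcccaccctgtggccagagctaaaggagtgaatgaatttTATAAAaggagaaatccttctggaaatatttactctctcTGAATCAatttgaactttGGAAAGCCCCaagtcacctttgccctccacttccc
Cxcl1 and Cxcl2 shared the same run of 11 bases, GGGAATTTCCC, whose last base lay 61 and 87 bases before the RefSeq start site, respectively. RefSeq places the starts of Cxcl1 and Cxcl2 slightly inside the GENCODE gene spans given above, and distances are counted from the RefSeq starts. Ccl9 held a kappaB match ending 26 bases, an AP-1 match ending 47 bases and TATAAA ending 87 bases before its start, whereas the window of Ccl6 held none of the 3 motifs. Matches of the 3 kinds were present in 7.28%, 6.73% and 7.55% of 32544 upstream windows of this length. RefSeq windows were matched for 6 of the 10 ligands; of the remaining matched ligands, Ccl3 held no match and Ccl12 held TATAAA ending 26 bases before its start. In the longest annotated 3′ UTR of each ligand, the AU-rich nonamer TTATTTATT, a motif found in short-lived transcripts, occurred 2 times in Cxcl1 and 4 times in Cxcl2 and in none of the other 8 ligands; it was present in 7.66% of 21028 genes. The shorter motif ATTTA, which the nonamer contains, was densest in Ccl12 (29.9 per kb) and Ccl3 (12.2 per kb). Cxcl1 (11.8 per kb), Cxcl2 (7.36 per kb) and Ccl4 (6.62 per kb) came next. Only Ccl5, with 0, lay below the median of 1.24 per kb over all genes. These matches are descriptions of the annotated sequence and were not measured here.

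Depth recovered from the deposited values ranged from 45.19 to 69.99 M fragments per library (M, mega), with the 4 PKR KO libraries the deepest (57.71 to 69.99 M). All 12 listed microglia markers were above 0 in each group, with summed levels of 3359 to 6252 FPKM (fragments scaled to gene length and to the depth of the library). Other cells were present at a lower level. Wild type library 3 had the lowest sum of microglia markers of any library, 3359 FPKM, and the highest sum of oligodendrocyte markers, 1580 FPKM against 225 to 786 FPKM in the other libraries. CircRNA library 4 had the lowest microglia sum (4221 FPKM) and the highest oligodendrocyte sum (786 FPKM) of its group. All 8 ligands that could be tested were lowest in these libraries within their groups, and calls that changed without them are given with and without. Eif2ak2, the gene of the knockout, stood at 3.35, 4.61, 3.31 and 4.16 FPKM in the PKR KO libraries, below the other 5xFAD libraries (6.49 to 8.11 FPKM). Wild type stood at 5.18, 5.23 and 4.14 FPKM, so that library 3 lay below PKR KO libraries 2 and 4. The log2 level was 0.85 higher with circRNA than with PKR KO, and PKR KO changed by -0.27 from wild type, both called, and by -0.64 from 5xFAD EGFP, not called (limma, adjusted p = 0.0644). It was not at 0 in the knockout libraries, and which exons were deleted is not given in the sources used here.

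The ligands differed widely in level. Levels per gene length in wild type microglia, as mean FPKM ± SD over 3 libraries, were highest for Ccl3 (48.6 ± 17.5) and Ccl4 (43.0 ± 13.2), followed by Ccl12 (22.1 ± 5.69) and Ccl6 (11.5 ± 2.42). Ccl9 (6.89 ± 1.55), Cxcl16 (6.62 ± 1.74) and Ccl2 (4.40 ± 1.79) came next. Neighbours in this order overlapped in range for Ccl3 with Ccl4, Ccl9 with Cxcl16, Cxcl16 with Ccl2, and Cxcl2 with Ccl5. The lowest levels were those of Cxcl2 (0.727 ± 0.348), Ccl5 (0.267 ± 0.0849) and Cxcl1 (0.121 ± 0.0457). In the group means of all 3 5xFAD groups, Ccl6 stood above Ccl12 and Cxcl16 above Ccl9, with overlap of Ccl6 and Ccl12 in the PKR KO group, while Ccl3 and Ccl4 stayed first and second and Cxcl1 last. Genes were tested where the mean of all libraries reached 1 FPKM. Ccl5 and Cxcl1 fell below this limit, so that 8 of the 10 ligands entered the tests and the other 2 are described by their values. Cxcl2 (mean 1.25 FPKM) passed only through the PKR KO group, in which it was highest; without those libraries its mean was 0.905 FPKM. Its tests involving that group are therefore given without the filter as well. Counts of ligands without overlap that include it are marked as such.

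**Figure D1:**
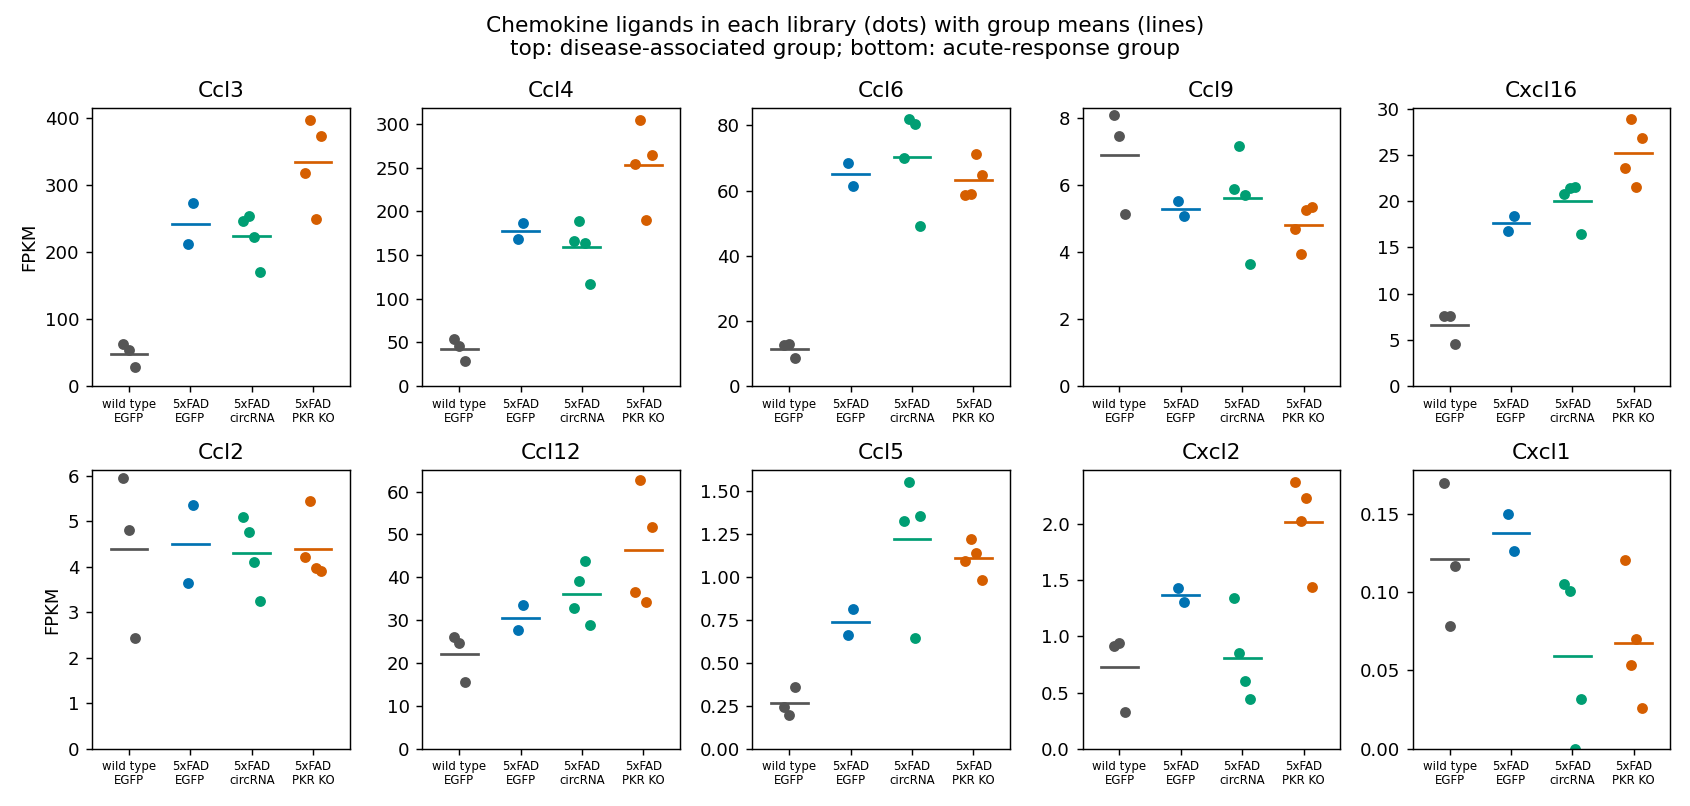
FPKM of the 10 ligands in each of the 13 libraries, 1 panel per ligand with its own linear axis from 0; dots are libraries and lines are group means. Ccl3, Ccl4, Ccl6 and Cxcl16 were higher in every 5xFAD library than in any wild type library, Ccl2 lay in one range in all groups, and Cxcl2 was higher in the PKR KO libraries (1.44 to 2.38 FPKM) than in the circRNA libraries (0.439 to 1.35 FPKM).

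The comparison of 5xFAD with wild type mice, both with the EGFP vector, asks what the disease model changes. Differences were tested with limma on log2(FPKM + 1) across 10817 genes, with Benjamini-Hochberg adjustment over those genes and a threshold of 0.05. In this comparison 4 of the 8 tested ligands were called, and all 4 were higher in 5xFAD: Ccl3, Ccl4, Ccl6 and Cxcl16. Among all tested genes, 7.65% were called higher and 6.35% lower, so that 54.6% of the calls were higher, a share that was 19.1% when libraries were rescaled to the same summed FPKM. The 4 all belonged to the disease-associated group, of which 4 of 5 were called, with a median log2 change of 2.07. None of the 3 tested ligands of the acute-response group was called, and their median was 0.48, against -0.03 over all tested genes. In bulk RNA of this kind, fewer cells of a type and less RNA per cell cannot be told apart.

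Ccl3, an attractant of monocytes and T cells, stood at 62.7, 54.0 and 29.1 FPKM in the wild type libraries and at 211 and 273 FPKM with EGFP in 5xFAD. Both 5xFAD values lay far above the wild type range. Its mean was 4.98 times that of wild type, and the log2 change was 2.35 ± 0.30 (SE; limma, adjusted p = 0.000321), the 30th largest increase of the 10817 genes. Ccl4, its close relative, stood at 54.3, 46.2 and 28.4 FPKM in wild type and at 168 and 187 FPKM in 5xFAD. The 2 groups were again apart, with a log2 change of 2.07 ± 0.27 (limma, adjusted p = 0.000386). Within a library the pair kept a narrow ratio: Ccl3 was above Ccl4 in all 13 libraries, by 1.02 to 1.17 times in wild type and by 1.25 to 1.48 times in 5xFAD.

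Ccl6, a Ccr1 ligand of rodents, changed by about as much as Ccl3. It stood at 12.7, 13.0 and 8.69 FPKM in wild type and at 68.5 and 61.4 FPKM in 5xFAD EGFP, with no overlap. The log2 change was 2.42 ± 0.21 (limma, adjusted p = 1.39e-05), and the ratio of means was 5.66. Cxcl16, the transmembrane ligand of Cxcr6, stood at 7.63, 7.61 and 4.60 FPKM in wild type and at 16.8 and 18.4 FPKM in 5xFAD. Its groups did not overlap either, and the change was smaller, 1.32 ± 0.19 on the log2 scale (limma, adjusted p = 0.000703). The 4 calls stayed under every alternative tried for this comparison.

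Ccl9, the neighbour of Ccl6 and also a Ccr1 ligand, did not follow it. It stood at 8.08, 7.46 and 5.14 FPKM in wild type and at 5.50 and 5.05 FPKM in 5xFAD EGFP. The 5xFAD values lay at the lower edge of the wild type range, and the log2 change was -0.31 (95% confidence interval -0.77 to 0.15; limma, adjusted p = 0.391). With wild type library 3 and circRNA library 4 both left out, the change was -0.48 and was called (limma, adjusted p = 0.0250, over the alternatives 0.0250 to 0.735). Within libraries, the level of Ccl6 was 1.58 to 1.74 times that of Ccl9 in wild type and 11.5 to 15.0 times in the 10 5xFAD libraries, with the wild type library low in microglia markers inside its group's range. The ratio thus varied little among the wild type libraries, although both genes were lowest in library 3.

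Among the acute-response ligands, Ccl2, the main monocyte attractant of the group, stood at 5.95, 4.81 and 2.44 FPKM in wild type and at 3.65 and 5.36 FPKM in 5xFAD EGFP. The ranges overlapped fully. Its log2 change was 0.07, with a 95% confidence interval from -0.49 to 0.63 (limma, adjusted p = 0.899), and the sign turned under 6 of 15 alternatives. Ccl12, a mouse ligand of Ccr2 encoded 64.4 kb from Ccl2, stood at 26.0, 24.6 and 15.5 FPKM in wild type and at 27.6 and 33.5 FPKM in 5xFAD. The groups were apart by a narrow margin, and the change of 0.48 ± 0.28 was not called (limma, adjusted p = 0.301). Cxcl2, the neutrophil attractant, stood at 0.911, 0.943 and 0.326 FPKM in wild type and at 1.43 and 1.30 FPKM in 5xFAD. It too was higher in both 5xFAD libraries without passing the threshold (log2 change 0.48 ± 0.21, limma, adjusted p = 0.179).

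Ccl5 and Cxcl1 were low in all libraries. Ccl5, a ligand best known from T cells and also made by activated microglia, stood at 0.243, 0.197 and 0.361 FPKM in wild type, from 9 to 17.5 fragments, and at 0.662 and 0.816 FPKM in 5xFAD EGFP. The circRNA group held 1.32, 1.56, 0.645 and 1.36 FPKM, and the PKR KO group 1.09, 1.22, 1.14 and 0.985 FPKM. Each 5xFAD library was above each wild type library. The 9 measured T and NK cell markers summed to 1.41 to 1.58 FPKM in wild type and 0.623 to 1.40 FPKM in 5xFAD, and none was at 0 throughout a group. In wild type the sum was mostly Klrd1 (mean 0.769 FPKM in wild type and 0.266, 0.248 and 0.107 FPKM with EGFP, circRNA and PKR KO) and Cd4 (0.600 FPKM and 0.321, 0.413 and 0.272 FPKM). At very low levels, some other members were higher in each 5xFAD group than in wild type. These were Nkg7 (0.0153 FPKM and 0.10, 0.194 and 0.227 FPKM), Cd3e (0.0100 FPKM and 0.0478, 0.0782 and 0.0375 FPKM), Cd3g and Cd8a. Ncr1 was lower in each 5xFAD group (0.0314 FPKM and 0.0238, 0.00718 and 0.0258 FPKM), and Gzma and Cd3d went both ways. These markers were singled out after their values were seen, and the part of such cells in the level of Ccl5 was not tested. When the filter on low values was dropped, which brought 18291 genes into the test, the log2 change of Ccl5 was 0.46 in 5xFAD EGFP (limma, adjusted p = 0.0836), 0.79 with circRNA (adjusted p = 0.00167) and 0.74 with PKR KO (adjusted p = 0.00184), each against the same wild type libraries. Cxcl1 had 0 to 15 fragments per library, 0 of them in circRNA library 3, and reached 0.169 FPKM at most. With no filter, no change of Cxcl1 was called in any comparison (limma, adjusted p from 0.201 to 0.924). Between the circRNA and PKR KO groups, an exact two-sided permutation test of the mean FPKM gave p = 0.657 for Ccl5 and p = 0.83 for Cxcl1, where 4 against 4 libraries can reach 0.0286 at the least.

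The other 2 groups of 5xFAD mice were also set against wild type. These comparisons share the 3 wild type libraries with the first, so that they are not independent of it, and their values are given side by side. With circRNA, 5 of 8 ligands were called and all were higher, where 17.8% of all genes were called higher and 8.05% lower (68.8% of the calls higher, against 54.3%, 51.2% and 17.5% with median-ratio, quantile and same-sum scaling). With PKR KO, 6 of 8 were called higher, where 17.5% of all genes were called higher and 19.4% lower (47.5% of the calls higher, against 17.8% with same-sum scaling). The 6 include Cxcl2, which the PKR KO values brought past the filter. With no filter 7 of the 10 ligands were called higher, Ccl5 being added, where 2121 of 18291 genes were called higher. Ccl3, Ccl4, Ccl6 and Cxcl16 were among the calls in both groups, joined by Ccl12 with circRNA and by Ccl12 and Cxcl2 with PKR KO.

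Ccl3 measured 246, 254, 223 and 170.0 FPKM in the circRNA group, and 319, 397, 249 and 374 FPKM under PKR KO, log2 changes of 2.23 ± 0.25 and 2.81 ± 0.25 from wild type. Ccl4 measured 167, 189, 164 and 117 FPKM in the circRNA group, and 255, 305, 189.6 and 265 FPKM under PKR KO, changes of 1.89 ± 0.23 and 2.56 ± 0.23. Every library of both groups exceeded every wild type library for these ligands. Ccl6 measured 69.9, 81.8, 80.5 and 49.2 FPKM in the circRNA group, and 58.6, 58.9, 71.1 and 64.6 FPKM under PKR KO, and its changes of 2.51 ± 0.18 and 2.38 ± 0.18 were close to the 2.42 of the EGFP group. Cxcl16 measured 20.7, 21.4, 21.5 and 16.4 FPKM in the circRNA group, and 23.6, 28.9, 21.5 and 26.9 FPKM under PKR KO, changes of 1.49 ± 0.16 and 1.80 ± 0.16. All 8 of these changes had a limma adjusted p of 7.71e-05 or less, and they were called under each alternative run.

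Ccl9 measured 5.88, 7.14, 5.69 and 3.65 FPKM in the circRNA group, and 4.69, 3.93, 5.26 and 5.34 FPKM under PKR KO. Its changes from wild type were -0.27 (limma, adjusted p = 0.302) and -0.43 (adjusted p = 0.0758). Without wild type library 3 the second change was -0.60 and was called (limma, adjusted p = 0.0208, over the alternatives 0.00205 to 0.243), as it was without both that library and circRNA library 4 (adjusted p = 0.00205); wild type library 3 held the lowest wild type value of Ccl9. Ccl2 measured 5.09, 4.77, 4.10 and 3.26 FPKM in the circRNA group, and 4.22, 5.44, 3.97 and 3.90 FPKM under PKR KO, inside the wild type range in all 8 libraries, with changes of 0.02 and 0.05.

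Ccl12 rose with PKR KO, where it stood at 36.5, 62.7, 34.1 and 51.7 FPKM, all above wild type (log2 change 1.03 ± 0.23, limma, adjusted p = 0.00466). With circRNA it stood at 32.9, 39.2, 43.8 and 28.9 FPKM, also above all wild type values. That change, 0.71 ± 0.23 (limma, adjusted p = 0.0403), lost its call under 12 of 17 alternatives, among them leaving out wild type library 3 (log2 change 0.48) or circRNA library 1, 2 or 3, with adjusted p from 0.0306 to 0.172. Without both wild type library 3 and circRNA library 4 it was 0.58 (limma, adjusted p = 0.0870). Cxcl2 stood at 2.38, 2.03, 2.23 and 1.44 FPKM with PKR KO, above all wild type values (0.82 ± 0.18, limma, adjusted p = 0.00398, and 0.00794 with no filter), and at 1.35, 0.851, 0.599 and 0.439 FPKM with circRNA, where library 1 lay above the wild type range and the other 3 within it (0.06 ± 0.18, adjusted p = 0.839). Because log2(FPKM + 1) compresses low values, the ratio of mean FPKM is also given: Cxcl2 was 2.78 times wild type with PKR KO and 1.11 times with circRNA.

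**Figure D2:**
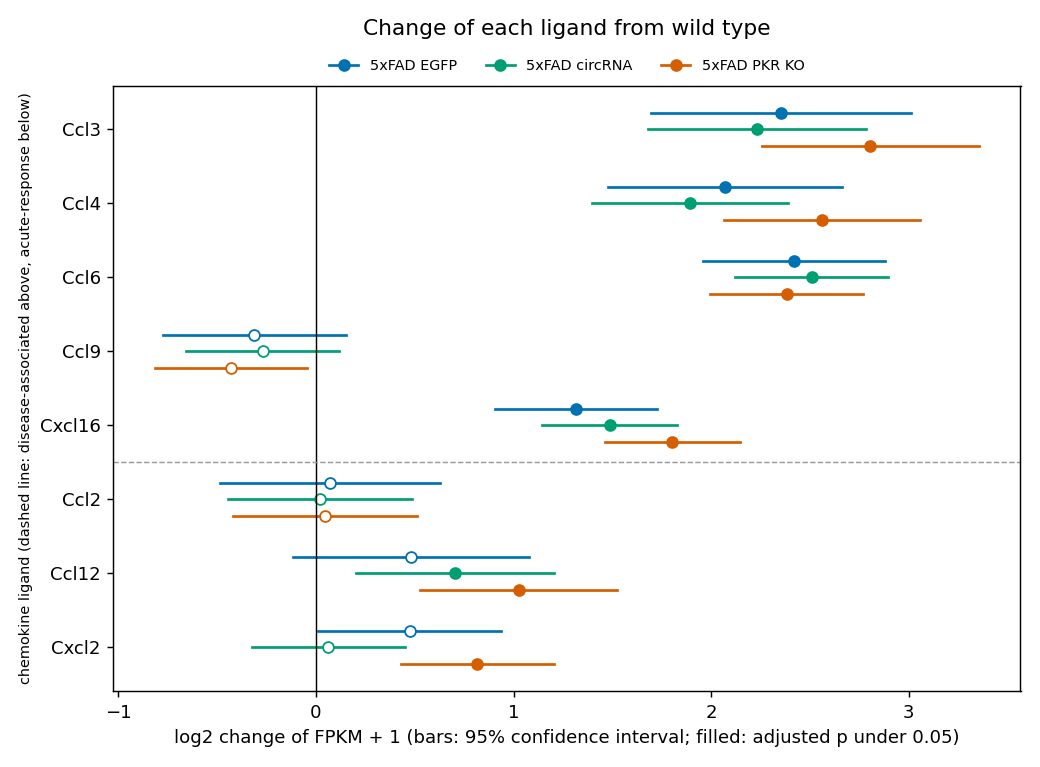
Log2 change of FPKM + 1 from wild type for the 8 tested ligands in the 5xFAD EGFP, circRNA and PKR KO groups, with 95% confidence intervals; filled points passed an adjusted p of 0.05 and the dashed line parts the disease-associated from the acute-response ligands. Ccl3, Ccl4, Ccl6 and Cxcl16 lie between 1.32 and 2.81 in all 3 groups, Ccl9 lies left of 0 with intervals that reach or come near it, and Ccl2 lies at 0.02 to 0.07.

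Ratios taken within a library do not depend on its scale and so compare the ligands with each other. The disease-associated ligands made up 80.2% to 81.4% of the summed FPKM of all 10 ligands in wild type and 91.0% to 93.7% in the 10 5xFAD libraries. Most of this share was Ccl3 and Ccl4, which together made up 60.7% to 65.5% in wild type and 71.2% to 81.4% in 5xFAD. Ccl3 alone was 10.5 to 11.9 times the level of Ccl2 in wild type, 50.9 and 58.0 times in 5xFAD EGFP, 48.4 to 54.4 times with circRNA and 62.7 to 96.0 times with PKR KO. The wild type ratios thus varied little although Ccl2 itself varied from 2.44 to 5.95 FPKM. The ratio of Ccl12 to Ccl2 differed less, from 4.37 to 6.37 times in wild type to 6.25 to 13.3 times in 5xFAD, where wild type library 3 (6.37 times) overlapped with the EGFP group. Cxcl2 was 0.369 to 0.564 times Ccl2 with PKR KO and 0.135 to 0.265 times with circRNA, the latter close to the 0.134 to 0.196 times of wild type. Of the EGFP libraries, one (0.392 times) lay in the PKR KO range and the other (0.243 times) in the circRNA range. Against Ccl3 in place of Ccl2, the order was another: Cxcl2 was 0.0112 to 0.0175 times Ccl3 in wild type, above every 5xFAD library, and the PKR KO (0.00385 to 0.00897 times) and circRNA (0.00258 to 0.00547 times) ranges overlapped.

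**Figure D3:**
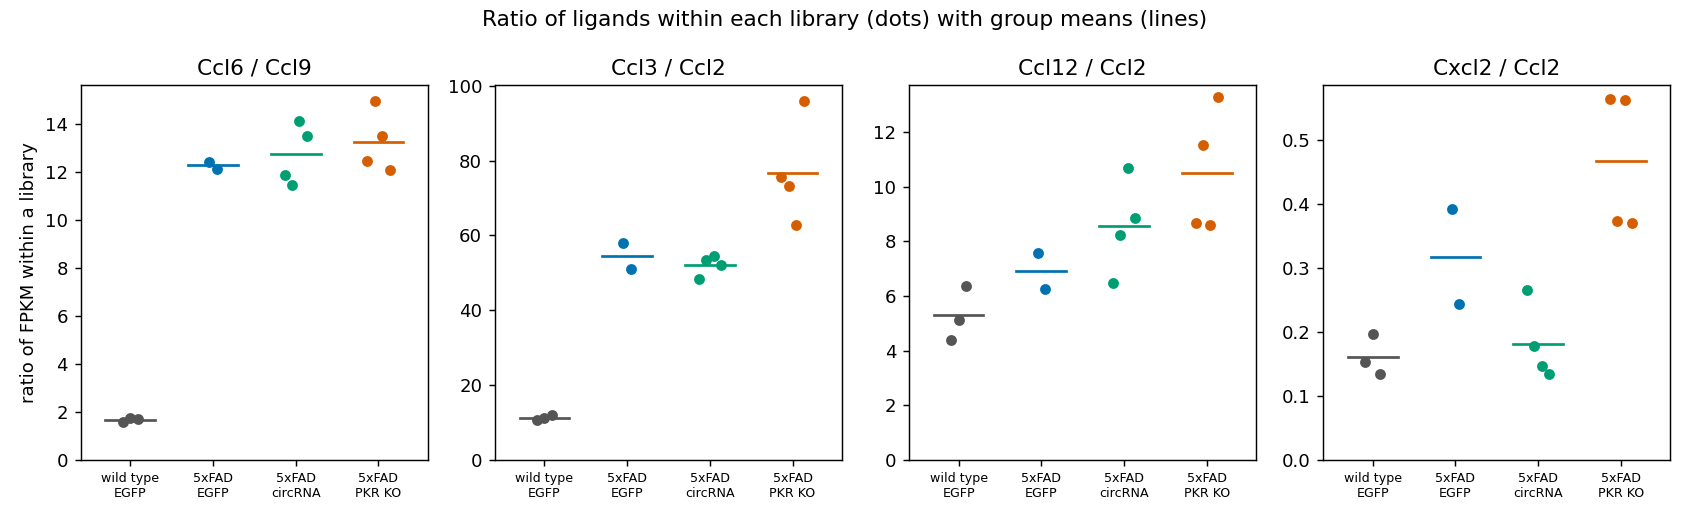
Ratio of the FPKM of paired ligands within each library, on linear axes from 0, with dots for libraries and lines for group means. Ccl6 to Ccl9 and Ccl3 to Ccl2 part the wild type libraries from all 10 5xFAD libraries, and Cxcl2 to Ccl2 is higher in the 4 PKR KO libraries (0.369 to 0.564) than in the 4 circRNA libraries (0.135 to 0.265).

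The effect of the circRNA vector and of PKR KO within 5xFAD was compared with the EGFP group of 2 libraries, which both comparisons share. No ligand passed the threshold with circRNA, and neither did any of the 10817 genes (0% called by limma, with 523 genes at an unadjusted p under 0.05 and none of the 8 ligands among them). A voom fit on the recovered fragments also called none of the 8. The changes were -0.12 for Ccl3, -0.18 for Ccl4, 0.09 for Ccl6 and 0.17 for Cxcl16, and their 95% confidence intervals, such as -0.75 to 0.50 for Ccl3, still allow a rise or a fall of that size. Cxcl2 had the lowest unadjusted p of the 8 tested ligands, with a change of -0.41 (95% confidence interval -0.85 to 0.03). Without the filter on low values, the change was 0.33 for Ccl5 (limma, unadjusted p = 0.0408, adjusted p = 0.881) and -0.10 for Cxcl1 (unadjusted p = 0.0492, adjusted p = 0.881).

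No ligand was called with PKR KO against EGFP either, where 0.0832% of all genes, 9 in number, were called by limma. At an unadjusted p under 0.05 stood 1404 genes and 1 of the ligands, Cxcl16, and the voom fit called no ligand either. The libraries of the 2 groups did not overlap for 4 of 8 ligands, Ccl4, Ccl12, Cxcl2 and Cxcl16, all higher with PKR KO. Among all genes 17.7% showed such separation upward. Cxcl2 is counted among the 4 although it passed the filter only through its PKR KO values. Its change was not called under any alternative, no filter included (limma, adjusted p from 0.135 to 0.834). Cxcl16 came nearest to the threshold, with a log2 change of 0.49 ± 0.18 (limma, unadjusted p = 0.0176, adjusted p = 0.273). It was called when libraries were weighted by their quality (limma, adjusted p = 0.0364, over the alternatives 0.0364 to 0.793), a setting that called 822 genes. Ccl4 changed by 0.49, Ccl12 by 0.55, Ccl3 by 0.45 and Cxcl2 by 0.34, none of them called, whereas Ccl6 and Ccl9, at -0.04 and -0.12, were not higher. The PKR KO libraries carry no vector in the labels and have library names of their own, so genotype, vector and library set cannot be told apart.

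The circRNA and PKR KO groups, with 4 libraries each, were compared directly. Here 1 of 8 ligands was called, Cxcl2, which was lower with circRNA; among all genes 4.28% were called higher and 1.91% lower (69.1% of the calls higher, against 49.6%, 32.1% and 27.6% with same-sum, quantile and median-ratio scaling). All 4 circRNA values of Cxcl2 (0.439 to 1.35 FPKM, 46 to 127 fragments) lay below all 4 PKR KO values (1.44 to 2.38 FPKM, 182.5 to 317 fragments). The log2 change was -0.75 ± 0.17 (limma, adjusted p = 0.0238). Cxcl2 was admitted by its PKR KO values, and with no filter the adjusted p was 0.0488. The call was lost when circRNA library 3 or 4 or PKR KO library 1, 2 or 3 was left out, with adjusted p from 0.00775 to 0.0775 over the alternatives. With wild type library 3 and circRNA library 4 both left out, the change was -0.65 and the call stayed (limma, adjusted p = 0.0175). The other ligand without overlap was Ccl4, at -0.67 ± 0.21 (limma, adjusted p = 0.0775). Ccl4 was called when wild type library 3 and circRNA library 4 were both left out (-0.53, limma, adjusted p = 0.0427, over the alternatives 0.0090 to 0.193). In all, 2 of 8 ligands were separated downward against 4.44% of all genes, 1 of the 2 being Cxcl2, which its PKR KO values brought past the filter. Ccl3 changed by -0.58 (limma, adjusted p = 0.149) and Cxcl16 by -0.32 (adjusted p = 0.194). Ccl6, Ccl9 and Ccl2 changed by 0.13, 0.16 and -0.02, all not called.

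**Figure D4:**
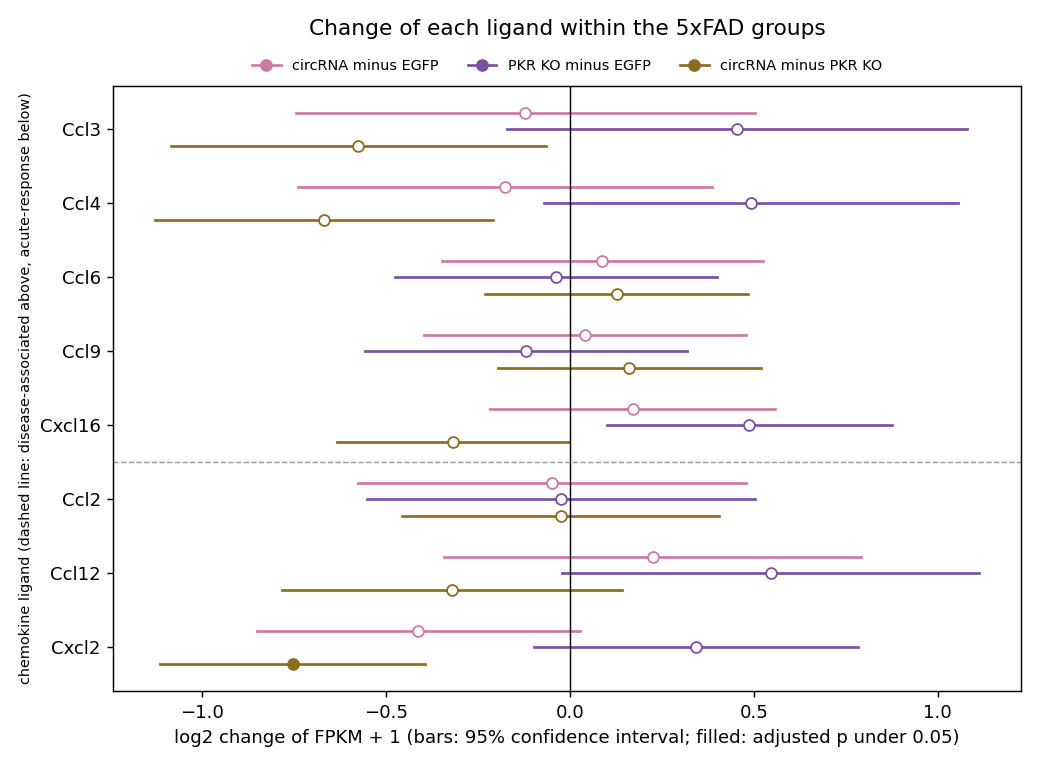
Log2 change of FPKM + 1 for the 8 tested ligands between the 5xFAD groups, with 95% confidence intervals and filled points where the adjusted p was under 0.05. Only Cxcl2 between circRNA and PKR KO is filled (-0.75), a ligand that passed the filter through its PKR KO values; Ccl3, Ccl4, Ccl12, Cxcl2 and Cxcl16 lie right of 0 with PKR KO and Ccl2, Ccl6 and Ccl9 lie between -0.12 and 0.16 in all 3 comparisons.

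Cxcl2 varied with 3 of the immediate-early genes, the transcription factors and regulators that are induced within minutes of a stimulus. The 3 genes whose log2 levels were most correlated with Cxcl2 over the 13 libraries were Fos (Pearson's r = 0.93), Fosb (0.93) and Jun (0.92). After each group's mean was subtracted, r was 0.77, 0.71 and 0.73. These values are a description over libraries that share groups and depth, and those of the other listed immediate-early genes are not given. Fos stood at 102, 58.9 and 55.7 FPKM in wild type, 92.1 and 106 FPKM in 5xFAD EGFP, 89.5, 72.3, 52.8 and 50.6 FPKM in the circRNA group, and 188, 194, 175 and 137 FPKM under PKR KO. The PKR KO libraries were thus highest for both genes, and circRNA libraries 3 and 4 and wild type library 3 were the 3 lowest for both. Of 20 listed immediate-early genes, all tested, 14 were called lower with circRNA than with PKR KO and 0 higher, where 1.91% of all genes were called lower (median log2 change -0.72, against 0.08 over all genes), among them Fosb (-1.49), Fos (-1.40) and Zfp36 (-1.40), which encodes a protein that binds AU-rich elements. Against wild type, 14 of 20 were called higher with PKR KO and 6 with EGFP, where 17.5% and 7.65% of all genes were. With circRNA 3 were called higher and 2 lower, close to the 17.8% and 8.05% of all genes. Immediate-early genes can also be induced while tissue is dissociated; how the cells were isolated is not given in the sources used here, and its part in these results was not tested.

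The tested genes of the acute inflammatory response, most of them targets or regulators of NF-kappaB, likewise had log2 changes below 0 between circRNA and PKR KO. Not all of them were called. Of 22 listed, 20 were tested; 11 were called lower with circRNA than with PKR KO (median -0.61), with Socs3 (-1.42), Tnfaip3 (-1.25) and Nfkbiz (-1.15) the largest, and none was higher, where 1.91% of all genes were called lower and 4.28% higher. Il6 and Tnip3, which fell below the filter, had higher means with circRNA (0.837 and 0.0377 FPKM) than with PKR KO (0.677 and 0.0164 FPKM). Against wild type, 16 of the 20 tested were called higher with PKR KO, 8 with circRNA and 5 with EGFP. Of all genes 17.5%, 17.8% and 7.65% were. In the EGFP group the largest of them were Cd83 (1.54), Il1b (1.45) and Tnf (1.31). The 20 tested include Ptgs2, named here because it passed the filter only through the PKR KO group. Its mean was 1.59 FPKM there, against 0.719, 0.999 and 0.909 FPKM in the wild type, EGFP and circRNA groups. For comparison, all 20 of the listed genes of disease-associated microglia outside the chemokines were higher than in wild type in each of the 3 5xFAD groups, with medians of 2.33, 2.66 and 2.86, led by Cst7, an inhibitor of cysteine proteases (6.93 with EGFP). Between circRNA and PKR KO, 2 of these 20 were called, Gpnmb (-0.98) and Csf1 (-0.47), both lower with circRNA, where 1.91% of all genes were called lower. The median of the 20 was -0.15 and 4 of them had a change above 0. Spp1, named here after its value was seen, had a change of -0.99 that was not called (limma, adjusted p = 0.0616). These lists were chosen with earlier results of these data known, and their counts are descriptions.

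**Figure D5:**
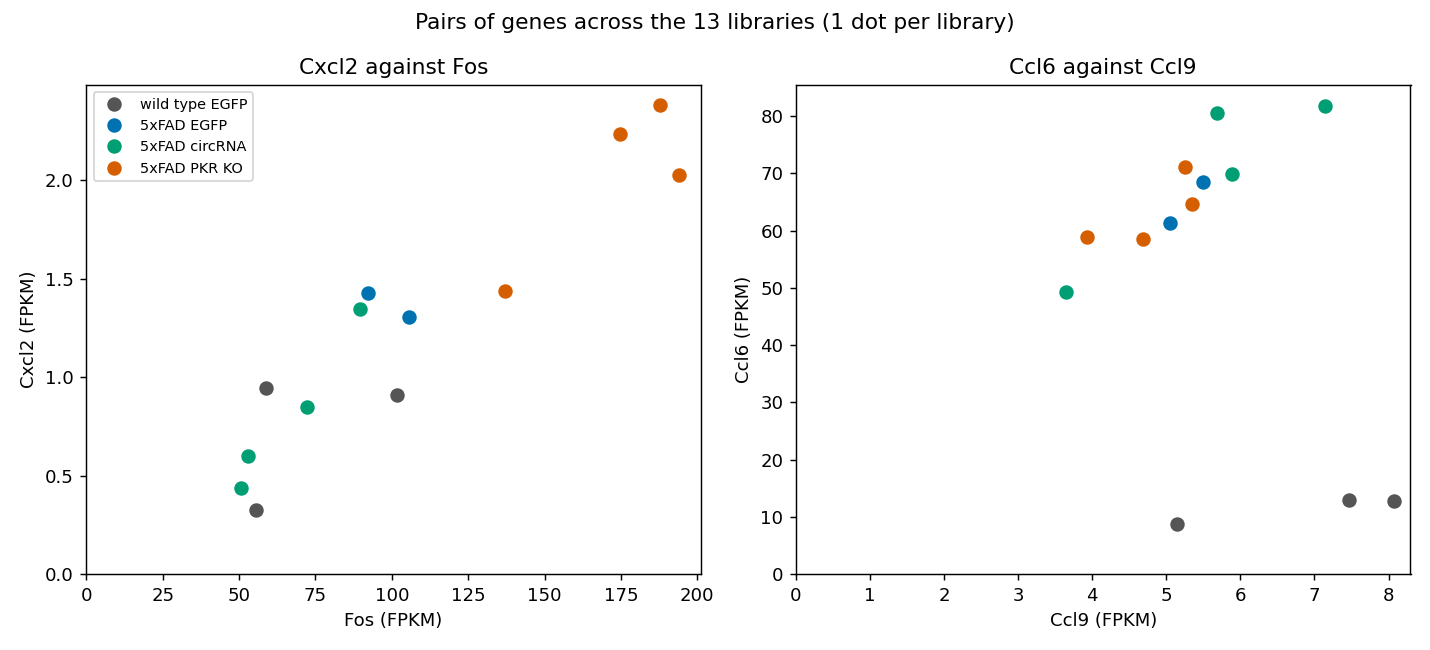
FPKM of Cxcl2 against Fos, and of Ccl6 against Ccl9, with 1 dot for each of the 13 libraries, coloured by group, on linear axes from 0. The PKR KO libraries are at the upper right for Cxcl2 and Fos; for Ccl6 and Ccl9 the 3 wild type libraries form a line far below that of the 10 5xFAD libraries.

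Several ligands also varied together between libraries of a group. Over the 13 libraries, Ccl3 and Ccl4 had a Pearson's r of 1.00 on the log2 scale and Ccl3 and Cxcl16 of 0.99, all 3 separating wild type from 5xFAD. After each group's mean was subtracted, r was 0.97 for both pairs. Ccl2, which was not called in any comparison, had an r of 0.31 with Ccl3 over the 13 libraries and of 0.91 within groups. Ccl6 and Ccl9 went from -0.36 over the libraries to 0.93 within groups. Other pairs were less alike within groups. The lowest r was 0.12, for Ccl12 and Cxcl2, and Cxcl2 had 0.47 to 0.50 with Cxcl16, Ccl3 and Ccl4. The libraries of a group thus tended to be high or low in several ligands at once, wild type library 3 and circRNA library 4 being the low ones, and depth and cell composition are shared by all genes of a library.

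With the 10 ligands left out of the ranking, the genes most like each tested ligand over the 13 libraries differed between ligands. Plek, a substrate of protein kinase C in leukocytes, Bcl2a1d, an anti-apoptotic gene, and Tlr2, a receptor of bacterial lipoproteins, were closest to Ccl3 among these other genes (r = 0.99 each). Bcl2a1d, Tlr2 and Egr2 were closest to Ccl4, and Plek, Bcl2a1b and Tlr2 to Cxcl16. Tlr2 rose from a mean of 14.6 FPKM in wild type to 41.9, 43.6 and 63.4 FPKM with EGFP, circRNA and PKR KO. Bcl2a1b and Bcl2a1d are near-identical copies, between which reads may be divided. Ccl6 was closest to Cd200r4, Tyrobp and Cd52 (r = 0.99 each), of which Tyrobp, the signalling adaptor of Trem2, had means of 208, 649, 723 and 674 FPKM, with circRNA highest as for Ccl6. Ccl9 was closest to Serinc3 (r = 0.92), Myadm and Nipa2, all lower on average in 5xFAD. Ccl12 was closest to Arl5c, Spg11 and Plxdc1 (r = 0.96 each), and Ccl2 to Rel, a subunit of NF-kappaB, Inpp5k and Ddx5, with lower correlations of 0.81 to 0.82.

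Chemokine receptors were measured in the same libraries. Ccr1, Ccr2, Cxcr2 and Cxcr6, named above as receptors of these ligands, fell below the filter (means over all libraries 0.830, 0.523, 0.0879 and 0.0492 FPKM). Of the listed chemokine receptors that passed the filter on low values, Cx3cr1, Ccrl2, Cxcr4 and Ackr3 are described. Ccrl2, which binds chemerin and does not signal as a chemokine receptor, rose from 6.40 ± 1.83 to 18.8 ± 1.04 FPKM (1.45 ± 0.22, limma, adjusted p = 0.000988), and Cxcr4, the receptor of Cxcl12, from 2.49 ± 0.91 to 8.58 ± 4.05 FPKM (1.43 ± 0.28, adjusted p = 0.00582). Ackr3, a scavenging receptor of Cxcl12, fell by 0.98 on the log2 scale (limma, adjusted p = 0.00829). It passed the filter only through the wild type group (mean 0.913 FPKM without it), so its call as lower is not independent of the filter. Cx3cr1, the fractalkine receptor of microglia and the most abundant of these, was at 402 ± 88.3 FPKM in wild type and changed by -0.31 in 5xFAD, which was not called (limma, adjusted p = 0.401). Ccrl2 was the receptor that parted the treated groups, at 35.3 ± 5.09 FPKM with PKR KO and 16.5 ± 3.22 FPKM with circRNA (-1.07 ± 0.17, limma, adjusted p = 0.00710).

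Of 27 other chemokine ligands listed, 25 were in the table and 8 passed the filter: Ccl7, Ccl8, Ccl25, Cxcl10, Cxcl12, Cxcl14, Pf4 and Cx3cl1. Cxcl10, an interferon-induced ligand of Cxcr3, was the one that rose in 5xFAD EGFP, from 0.990 ± 0.142 to 2.99 ± 0.293 FPKM (log2 change 1.00 ± 0.22, limma, adjusted p = 0.00896), and it was also higher with circRNA (1.10) and PKR KO (1.40). Cxcl12, Pf4 and Ccl25 fell in 5xFAD EGFP, by 1.47, 1.02 and 0.31 on the log2 scale (limma, adjusted p = 0.0173, 0.0460 and 0.0168). Ccl25 passed the filter only through the wild type group, its mean being 0.929 FPKM without it, so its call as lower is not independent of the filter. Cxcl12 and Pf4 are made by vascular cells and border macrophages, among others. The summed markers of border macrophages, a list that includes Pf4, were at 42.9 to 67.9 FPKM in wild type and at 16.1 to 29.3 FPKM in 5xFAD, and those of endothelial and mural cells at 87.8 to 191 FPKM and 34.4 to 92.3 FPKM; their part in these decreases was not tested. Between circRNA and PKR KO none of the 8 was called. For the neutrophil ligands Cxcl1 and Cxcl2, summed neutrophil markers were at 1.43 to 10.5 FPKM in 12 libraries and at 27.1 FPKM in PKR KO library 4, which had the lowest Cxcl2 of its group.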

How the data were processed

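Total RNA was depleted of ribosomal RNA, made into stranded libraries and sequenced on a NovaSeq, per the labels' protocols. The authors deposited 1 table of FPKM values for 19737 genes in 13 libraries. Bowtie2 2.3.5, HISAT2 2.1.0, featureCounts 1.5.1 and the mm10 build are named, per the submitters' processing notes, without their roles.

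FPKM were taken as deposited, and log2(FPKM + 1) of the 10817 genes whose mean reached 1 FPKM was fitted in limma 3.58.1 (R 4.3.3) over all 4 groups, with 9 residual degrees of freedom and Benjamini-Hochberg adjustment over all tested genes in each of 6 comparisons. The fit was tested on simulated data. FPKM are corrected for depth and gene length only, so a change in the RNA composition of a library shifts all of its genes, and adding 1 understates the changes of low genes. Of 47122 values below 0.3 FPKM, 90.5% were whole fragments within 0.02 (chance gives 4.0%) once lengths of 19394 genes were applied, which gave the depths and fragment counts and allowed a voom fit as an alternative. Ccl5 and Cxcl1 were compared between the groups of 4 by an exact permutation test (scipy 1.17.1). Sequences were read with Python 3.11.15 and motifs searched as described. Same-numbered libraries were checked for shared deviations, and no block was used. The alternatives were another pseudocount, no filter, 3 scalings, quality weights (arrayWeights), fits of the groups compared alone, a replicate block, the voom fit and leaving out each library.

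Genes named are the 10 ligands, the other listed chemokine ligands and receptors that passed the filter (1 result is not reported here), the 3 genes with the highest correlation to each tested ligand, at most 3 examples with the largest called changes from each other list, and Eif2ak2. The members and lists were chosen with earlier results of these data known.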

Additional observations from a re-analysis of the deposited data

Results flagged for a closer look

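Values of 23 genes, the 10 ligands and 13 other chemokine ligands and receptors, were looked at in the groups of 4 libraries, 46 groups of values in all, for a library far from the other 3 relative to the range of its group. Chance marks about 1 in 20 such groups. Cxcl16 was at 16.4 FPKM in circRNA library 4, against 20.7 to 21.5 FPKM in the other circRNA libraries; this library also had the lowest sum of microglia markers of its group. Ccl25 was at 0.847 FPKM in circRNA library 3, against 1.02 to 1.03 FPKM in the others. Cxcl10 was at 3.81 FPKM in circRNA library 2, against 3.08 to 3.11 FPKM in the others. These 3 marks were the only ones among the 46.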

How the results depend on the processing

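Ccl3, Ccl4, Ccl6 and Cxcl16 were called higher than wild type in all 3 5xFAD groups under each alternative, with log2 changes in the EGFP group of 2.03 to 2.57, 1.80 to 2.26, 2.25 to 2.53 and 1.11 to 1.45. The number of ligands called with PKR KO against EGFP was 0, and 1 with quality weights, which called 822 genes against 9 as reported. Between circRNA and PKR KO, 1 ligand was called, among 670 genes. Median-ratio scaling called 2 ligands and 941 genes (27.6% of the calls higher). Quality weights called 4 ligands and 3161 genes (69.3% higher). Without wild type 3 and circRNA 4, an alternative chosen after seeing the data, 2 ligands and 1152 genes were called (74.3% higher). Leaving out each library in turn gave 0 to 1 ligands. Other member counts stayed within 1.5 times. Over all genes, calls ranged from 509 to 3709 for 5xFAD EGFP against wild type (1514 as reported), from 1725 to 5676 for circRNA against wild type (2796), from 3104 to 6595 for PKR KO against wild type (3997), from 0 to 822 for PKR KO against EGFP (9) and from 147 to 3161 for circRNA against PKR KO (670). Same-sum scaling moved the median of all genes against wild type to -0.17, -0.20 and -0.24 with EGFP, circRNA and PKR KO, from -0.03, 0.02 and -0.05. Under this common shift Ccl9 passed the threshold with circRNA (-0.52) and PKR KO (-0.63).

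The sign of small, uncalled changes turned, and the cause was not tested. Ccl2 against wild type was -0.068, -0.21 and -0.14 (EGFP, circRNA, PKR KO) with same-sum scaling, -0.12, -0.088 and -0.11 with quality weights, and -0.23, -0.17 and -0.25 without wild type 3 and circRNA 4; with circRNA it was also -0.032 with median-ratio and -0.0016 with quantile scaling. Quality weights gave Ccl2 0.028 for circRNA against EGFP, 0.0026 for PKR KO against EGFP and 0.025 for circRNA against PKR KO. Without wild type 3 and circRNA 4, Ccl2 was 0.052 and Ccl3 0.0034 for circRNA against EGFP, Ccl2 was 0.076 for circRNA against PKR KO, and Cxcl2 was -0.015 for circRNA against wild type, where quantile and same-sum scaling gave -0.10 and -0.057. For circRNA against EGFP, quantile, same-sum and median-ratio scaling gave -0.042, -0.027 and -0.012 for Ccl6 and -0.0436, -0.056 and -0.0436 for Ccl9. Leaving out each library in turn gave Ccl2 -0.23 to 0.30, -0.27 to 0.23 and -0.25 to 0.26 against wild type (EGFP, circRNA, PKR KO), -0.28 to 0.18 for circRNA against EGFP, -0.25 to 0.20 for PKR KO against EGFP and -0.095 to 0.076 for circRNA against PKR KO. For circRNA against EGFP it gave Ccl3 -0.31 to 0.062 and Ccl9 -0.069 to 0.20, for PKR KO against EGFP Ccl6 -0.12 to 0.039, and for circRNA against wild type Cxcl2 -0.12 to 0.17. The FPKM difference of circRNA and PKR KO ran from -0.000632 to 0.303 for Ccl5 and from -0.0232 to 0.0118 for Cxcl1.

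In fits with a replicate block, the numbers of ligands called stayed at 4, 0, 0, 5, 6 and 1, and the calls over all genes went from 1514 to 1306, 0 to 0, 9 to 22, 2796 to 2678, 3997 to 3870 and 670 to 448 (5xFAD EGFP against wild type, circRNA and PKR KO against EGFP, circRNA and PKR KO against wild type, circRNA against PKR KO). The block turned Ccl2 to -0.077 for 5xFAD EGFP against wild type, Ccl2, Ccl3 and Ccl4 to 0.17, 0.094 and 0.041 for circRNA against EGFP, and Ccl2 and Ccl6 to 0.19 and 0.053 for PKR KO against EGFP. Same-numbered libraries did not deviate together throughout (lowest correlation -0.42, -0.18 and 0.04 in the comparisons with 3 or more pairs), so the libraries share only a number. Cxcl1 (0 to 15 fragments) and Ccl5 (9 to 82) rest on few fragments. The 2 EGFP libraries of 5xFAD limit the 3 comparisons that rest on them, that with wild type included.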
